A study of Mus musculus with 4 samples.

Results

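H19, Kcnq1ot1 and Airn are long non-coding RNAs of 3 imprinted gene clusters, and their nascent transcription was followed here together with that of the coding genes beside them. The members were all rows of the deposited gene table that carry 1 of 9 symbols, which are H19 and Igf2, Kcnq1ot1 with Kcnq1, Cdkn1c, Phlda2 and Ascl2, and Airn with Igf2r. The rule used no measured value, and it found 9 of the table's 54146 mouse genes. Newly made RNA was measured by TT-seq, in mouse ES (embryonic stem) cells kept in LIF and serum. In TT-seq, cells are fed 4-thiouridine (4sU), and the RNA that takes it up is purified and sequenced. The groups were 2 libraries labelled Supt3 WT and 2 labelled Supt3 KO, and Supt3 encodes a core subunit of the SAGA coactivator complex. The labels give no allele, clone, strain or sex of the cells, and all libraries had 4sU RNA from S. pombe, a fission yeast, added as a spike-in. Nothing says that the libraries of a group came from separate cultures, so a p-value here reads only how far these libraries spread, which can be technical.

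Imprinted genes are transcribed mainly from 1 parental allele, chosen by DNA methylation that is set in the germ line. H19 is made from the maternal allele and Igf2, a growth factor gene, from the paternal one, and both draw on shared enhancers across a control region bound by CTCF. Kcnq1ot1 and Airn are made from the paternal allele, each starting inside a coding gene and running antisense to it, and are known for silencing neighbouring genes on their own chromosome. In undifferentiated ES cells Igf2r is known to be transcribed from both alleles. The counts analysed here do not separate the parental alleles.

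The 2 macro non-coding RNAs start inside the genes they oppose, and their promoters are shown because 1 of these RNAs rose in KO while the other did not pass the test. RefSeq's promoter table for GRCm38.p6 held 6 of the 9 members, and it gives 250 bases before and 50 bases from each start site. H19, Kcnq1 and Cdkn1c were not among them. Capitals mark matches to 3 short motifs, searched on both strands. The CCAAT box was searched as CCAAT. The GC box was searched as GGGCGG. The TATA box was searched as TATAAA. The Kcnq1ot1 promoter lies at chr7:143296498-143296797 on the minus strand, and the Airn promoter at chr17:12741061-12741360 on the plus strand.
Kcnq1ot1: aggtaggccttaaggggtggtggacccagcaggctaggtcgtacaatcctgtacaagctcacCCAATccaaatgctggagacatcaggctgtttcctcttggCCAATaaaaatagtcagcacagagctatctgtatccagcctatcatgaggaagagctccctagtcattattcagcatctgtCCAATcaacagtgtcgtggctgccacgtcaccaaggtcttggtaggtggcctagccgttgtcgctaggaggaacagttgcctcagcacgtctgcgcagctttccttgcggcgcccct
Airn: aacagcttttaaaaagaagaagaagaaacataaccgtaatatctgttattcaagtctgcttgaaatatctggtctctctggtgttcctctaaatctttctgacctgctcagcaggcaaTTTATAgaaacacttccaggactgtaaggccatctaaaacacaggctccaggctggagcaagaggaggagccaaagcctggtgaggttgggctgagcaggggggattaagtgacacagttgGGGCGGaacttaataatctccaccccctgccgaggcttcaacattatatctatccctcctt
The Kcnq1ot1 window held 3 CCAAT boxes and neither of the other marked motifs, while the Airn window held 1 GC box, 1 TATA box and no CCAAT box. No base belonged to more than 1 match. Among the 32851 windows of this length in the table, 37.4% held a CCAAT box and 3.37% held 3 or more, 35.7% held a GC box and 13.6% a TATA box. TGCCGC, the hexamer read by the imprint-protecting protein ZFP57, was in neither window and in 11.6% of all windows. The Kcnq1ot1 window had 9 CpG and the Airn window 3, where the median of all windows was 7. Among the other tested members with a window, Ascl2 held 3 CCAAT boxes and 1 GC box. Phlda2 held 1 CCAAT box, 2 GC boxes and 1 TATA box, and Igf2r held 3 GC boxes. These matches are letters in a window and say nothing of binding. Whether they go with the change in KO was not tested.

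How the reads were assigned decides which members could be measured at all. Of 6444 genes of the table whose body, introns included, lies wholly inside the bodies of other genes on the same strand, 0 had a count in any library. Of 6016 genes lying wholly inside genes of the opposite strand and touching none on their own, 2724 (45.3%) had counts, against 52.6% of genes that touch no other gene. The counts therefore followed strand, covered whole gene bodies and left out reads that fit 2 genes of 1 strand. Antisense pairs such as Airn and Igf2r were counted apart, although their bodies share 28.4 kb, and so were Kcnq1ot1 and Kcnq1, which share 93.1 kb.

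Igf2 was not measured. It is listed at 0 in all 4 libraries, and 99.98% of its body, all but 3 bases, lies inside the predicted gene Gm49394 on the same strand. Sox2, a core pluripotency gene of ES cells, was also listed at 0 and lies wholly inside Sox2ot, an example chosen after its values were seen. The part of Gm49394 outside Igf2 held 0 and 0 counts in WT and 3 and 1 in KO. Igf2os, the RNA antisense to Igf2, held 15 and 20 counts in WT and 13 and 24 in KO, and its groups overlapped on the scale used below. The microRNA gene Mir675 lies inside H19 and is listed at 0 too. Its mature products are shown as RefSeq gives them, with the seed, bases 2 to 8, in capitals.
mmu-miR-675-5p: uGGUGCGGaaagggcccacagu
mmu-miR-675-3p: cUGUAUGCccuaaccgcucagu
A count over the H19 body does not measure these mature forms.

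Levels are given as CPM, the per-million share of a library's mouse counts, with TMM scaling (trimmed mean of M-values), which reads each gene against the bulk of nascent transcripts. Per library there were 13092151 to 19405100 mouse counts and 3462802 to 4836407 S. pombe counts, and replicate 1 of each genotype was the shallower. A gene with no read could be at up to 0.157 to 0.223 CPM, the level of 3 counts, for counting error only. Supt3 itself read 148 and 159 CPM in the WT libraries, against 123 and 140 CPM in the KO libraries (log2 fold change -0.22 ± 0.10, SE, edgeR adjusted p = 0.232), so its level does not check the label.

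H19 and Airn rose in KO relative to the bulk of transcripts, and no member was called lower. On the spike-in scale given further on, neither was called, with log2 fold changes of 1.45 for H19 and 0.98 for Airn. Of the 8 members tested, edgeR's quasi-likelihood test called 2 higher and 0 lower at an adjusted p under 0.05, and 6 did not pass. At an unadjusted p under 0.05 there were 4 higher (H19, Cdkn1c, Ascl2 and Airn) and 0 lower. Of all 16789 genes tested, 3842 had an unadjusted edgeR p under 0.05 in either direction. Both DESeq2 and limma voom called the same 2 genes, H19 and Airn, and 0 lower. Over all 16789 genes tested, edgeR called 8.07%, of which 4.05% of all genes were higher and 4.02% lower. DESeq2 called 3.54% higher and 3.37% lower, and voom 3.98% and 4.08%. The median log2 fold change of the 8 was 0.74, beside 0.01 over all tested genes. KO libraries both stood above both WT libraries for 5 of the 8 and below them for 1, where 26.7% and 26.0% of all tested genes did so. Ascl2 met the low-count filter in both KO libraries and in WT replicate 1, and the filter asks for 2 libraries. It could therefore not have been tested without its KO libraries, where it is high. Ascl2 is among the 4 and the 5 members above and enters their median, and it adds no support to these. Igf2, at 0 throughout, was the member not tested.

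**Figure D1:**
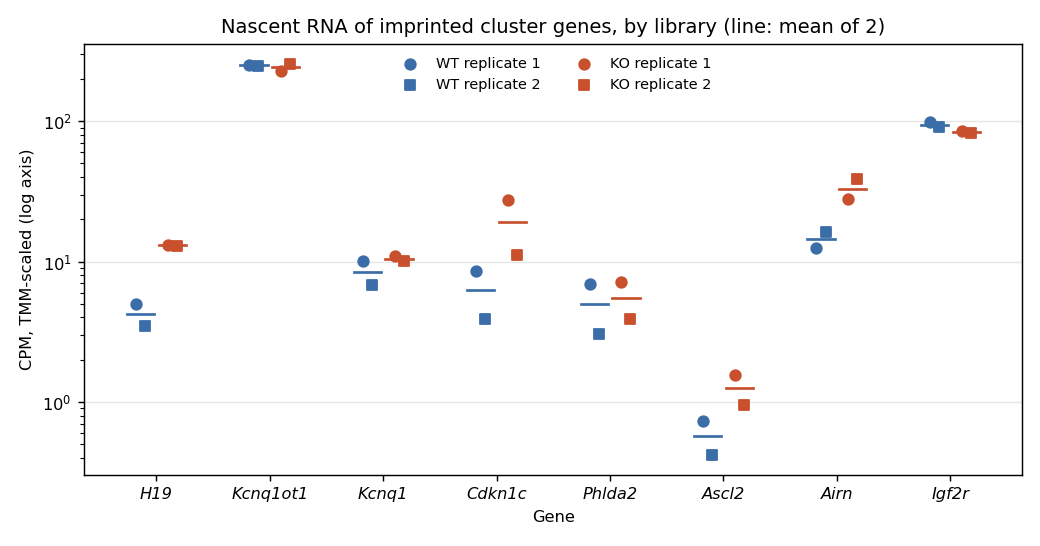
TMM-scaled CPM (log axis) of the 8 tested genes in each of the 4 libraries, with a line at the mean of the 2 libraries of a genotype. The KO points of H19, Airn, Cdkn1c, Ascl2 and Kcnq1 all lie above the WT points, those of Igf2r lie below, and Kcnq1ot1 and Phlda2 overlap.

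H19, the maternally made RNA of the first cluster (ENSMUSG00000000031, chromosome 7, 142575529 to 142578143, minus strand), had 68 and 67 counts in WT and 176 and 232 in KO. The WT libraries read 4.98 and 3.50 CPM and the KO libraries 13.1 and 13.0 CPM. The KO libraries were nearly equal and both well above the WT pair. The log2 fold change was 1.64 ± 0.20 (SE), a 3.11-fold rise (edgeR adjusted p = 0.00297), from 4.24 ± 1.05 to 13.0 ± 0.0273 CPM (SD, n = 2 each). Within the shallower pair of libraries the difference was 1.39 and within the deeper pair 1.89. Per kb of gene body not shared with another gene of its strand, H19 went from 1.68 to 5.15 CPM per kb. The planned ratio of H19 to Igf2 has Igf2 at 0 throughout and so only restates H19, with a difference of 1.57 on the log2 scale (exact two-sided permutation test, p = 0.333, the smallest p that 2 against 2 libraries can give).

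None of the tested genes around H19 was called. Of the 12 genes listed for this neighbourhood, among them the muscle gene Tnnt3 and the insulin gene Ins2, 5 were tested. For these edgeR called 0, with 0 at an unadjusted p under 0.05, and the median log2 fold change was -0.06. The most abundant were Ctsd, a lysosomal protease gene, with a mean of 18.9 ± 1.54 CPM over the WT and 21.8 ± 1.74 CPM over the KO libraries, and Mrpl23, a mitochondrial ribosome gene, with 8.13 ± 0.414 and 7.70 ± 1.97 CPM (SD, n = 2 each). Of 16 tested genes whose body comes within 500 kb of the stretch that H19 and Igf2 span, again 0 were called, with 3 at an unadjusted p under 0.05. Of all 16789 genes tested, edgeR called 8.07%, and 3842 had an unadjusted p under 0.05. With so few genes around H19, 0 calls is near that share. The difference between H19 and these neighbours was not tested.

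Kcnq1ot1, the antisense RNA that heads the second cluster (ENSMUSG00000101609, chromosome 7, 143203458 to 143296549, minus strand), was the most abundant member by CPM. The WT libraries read 252 and 247 CPM and the KO libraries 226 and 257 CPM, from 3053 to 4731 counts. The groups overlapped, and the log2 fold change was -0.05 ± 0.10 (SE, edgeR adjusted p = 0.838). Kcnq1, the potassium channel gene whose body it lies in (chromosome 7, 143106362 to 143427042, plus strand), read 10.0 and 6.80 CPM in the WT libraries, against 10.9 and 10.1 CPM in the KO libraries. Both KO values were above both WT values, by less than the gap between the WT libraries (0.33 ± 0.21, SE, edgeR adjusted p = 0.395). Per kb of body the antisense RNA was 84.8 and 123 times as high as Kcnq1 in WT, and 70.1 and 85.9 times in KO. Kcnq1ot1 took 96.2% and 97.3% of the pair's counts in WT and 95.4% and 96.2% in KO, with Wilson intervals (95%, counting error only) that span 94.6% to 97.7% over the libraries.

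Cdkn1c, which encodes the CDK inhibitor p57 (chromosome 7, 143458339 to 143461050, minus strand), had as large a fold change as H19 with a wider spread. The WT libraries read 8.57 and 3.92 CPM and the KO libraries 27.4 and 11.2 CPM, from 117, 75, 369 and 200 counts. Both KO libraries were above both WT libraries, and in each genotype the shallower library was the higher. The log2 fold change was 1.65 ± 0.44 (SE) and just missed the threshold (edgeR adjusted p = 0.0552). The shallower pair differed by 1.67 and the deeper pair by 1.52. With a term for these depth pairs the adjusted p was 9.22e-24. That term was defined from the library totals and leaves 1 residual degree of freedom. Leaving out a library gave log2 fold changes from 0.89 without KO replicate 1 to 2.27 without WT replicate 1, each of them called (highest adjusted p = 0.0290, edgeR). In DESeq2 the adjusted p was 0.281 and in limma voom 0.0749. Of all genes tested, the depth-pair term called 13.2% higher, and leaving out a library called 4.01% (WT replicate 1), 2.01% (WT replicate 2), 5.65% (KO replicate 1) or 9.46% (KO replicate 2) higher. Cdkn1c was also called with DESeq2's size factors in edgeR and with no low-count filter, which called 4.09% and 4.27% of all genes higher. It was not called with total mouse counts as library size or a minimum count of 50, which called 3.32% and 4.76% higher.

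Phlda2, a placental growth regulator with a PH domain (chromosome 7, 143501545 to 143503150, minus strand), read 6.96 and 3.03 CPM in the WT libraries, against 7.20 and 3.87 CPM in the KO libraries. The groups overlapped, with the shallower library again the higher in each genotype (log2 fold change 0.16 ± 0.41, SE, edgeR adjusted p = 0.861). The sign turned without WT replicate 2 (-0.35) and without KO replicate 1 (-0.32). Ascl2, a transcription factor gene of the trophoblast lineage (chromosome 7, 142966829 to 142969264, minus strand), had 10 and 8 counts in WT and 21 and 17 in KO. With 0.733 and 0.418 CPM in the WT libraries, against 1.56 and 0.954 CPM in the KO libraries, it was the least abundant member with counts. Its KO values were both above the WT values, and its log2 fold change of 1.14 ± 0.47 (SE) did not pass (edgeR adjusted p = 0.190). Without KO replicate 2 it was 1.48 and called (edgeR adjusted p = 0.0372), and without WT replicate 1 it was 1.53 and not called (0.176). It was smaller without WT replicate 2 (0.74, edgeR adjusted p = 0.715) and without KO replicate 1 (0.77, 0.482).

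Osbpl5 alone was called among the other genes of the Kcnq1 domain. Of 14 listed genes 11 were tested, with 1 higher, 0 lower and a median log2 fold change of -0.03. Of all tested genes, 4.05% were called higher and 4.02% lower. Osbpl5, a lipid transfer protein gene whose start lies 460.4 kb from that of Kcnq1ot1, read 14.4 and 12.3 CPM in the WT libraries, against 24.1 and 22.3 CPM in the KO libraries. It rose by 0.80 ± 0.14 (SE, edgeR adjusted p = 0.0112). With spike-in scaling its log2 fold change was 0.58 and not called, and its groups overlapped. The tested genes that start between Kcnq1ot1 and Osbpl5 are Cdkn1c and Phlda2, described above, and 5 others. Of the 5, named here after their values were seen, the transporter gene Slc22a18, the histone chaperone gene Nap1l4 and the tRNA synthetase gene Cars had log2 fold changes of -0.04, 0.08 and -0.11, and the receptor genes Tnfrsf22 and Tnfrsf23 of -0.23 and -0.03. Within 500 kb of the stretch that this cluster's members span, measured in the same way, 21 other genes were tested. Osbpl5 was the only one called, with 3 at an unadjusted p under 0.05. Among all 16789 genes tested, 8.07% were called, and 3842 had an unadjusted p under 0.05 (edgeR).

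**Figure D2:**
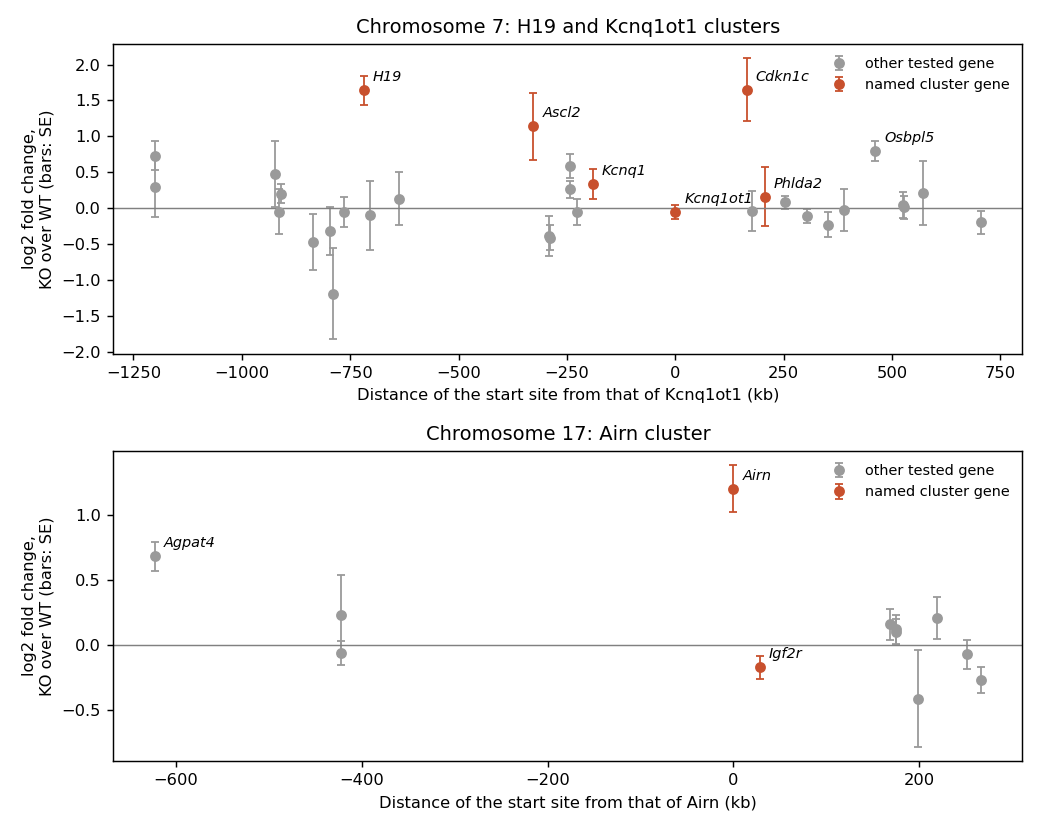
Log2 fold change of KO over WT with its standard error for each tested gene whose body comes within 500 kb of a cluster, against the distance of its start site from that of Kcnq1ot1 (top, chromosome 7) or Airn (bottom, chromosome 17). Named cluster genes are coloured, and the other labelled genes, Osbpl5 and Agpat4, are those called by edgeR; the median of the neighbours is -0.04 around the chromosome 7 clusters and 0.11 around Airn.

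Airn, the antisense RNA of the third cluster (ENSMUSG00000078247, chromosome 17, 12741311 to 12860122, plus strand), rose while its coding partner did not. It had 171 and 310 counts in WT and 375 and 685 in KO. The WT libraries read 12.5 and 16.2 CPM and the KO libraries 27.8 and 38.4 CPM. All KO values were above the WT values, and the deeper library was the higher in each genotype. The log2 fold change was 1.20 ± 0.18 (SE), a 2.30-fold rise (edgeR adjusted p = 0.00689), with 1.15 in the shallower pair and 1.25 in the deeper.

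Igf2r, which encodes the receptor that clears IGF2 and sorts lysosomal enzymes (ENSMUSG00000023830, chromosome 17, 12682406 to 12769664, minus strand), read 97.9 and 91.3 CPM in the WT libraries. The KO libraries read 85.2 and 82.8 CPM, both below the WT values. The log2 fold change of -0.17 ± 0.09 (SE) did not pass (edgeR adjusted p = 0.292). Per kb of body, Igf2r was 10.5 and 7.61 times as high as Airn in WT, and 4.14 and 2.91 times in KO.

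Ratios of 2 genes within a library do not depend on how libraries are scaled. Airn took 11.3% and 15.1% of the counts of Airn and Igf2r together in WT, and 24.6% and 31.7% in KO. The 95% Wilson intervals, which cover counting error only, reached up to 16.7% in WT and down to 22.5% in KO. The log2 ratio of Airn to Igf2r had a mean of -2.73 ± 0.33 over the WT and -1.36 ± 0.36 over the KO libraries (SD, n = 2 each), a difference of 1.37 (exact two-sided permutation test, p = 0.333). It was 1.35 in the shallower pair and 1.39 in the deeper, and the gap between libraries of a genotype was 0.47 in WT and 0.51 in KO. The log2 ratio of Kcnq1ot1 to Cdkn1c had means of 5.42 ± 0.78 (WT) and 3.78 ± 1.04 (KO), without overlap (SD, n = 2 each, difference -1.64, exact permutation p = 0.333). Leaving out 1 library moved that difference from -0.91 without KO replicate 1 to -2.37 without KO replicate 2, with an exact permutation p of 0.333 without KO replicate 2 and 0.667 without any other library. That of Kcnq1ot1 to Kcnq1 was 4.91 ± 0.38 and 4.52 ± 0.21, with overlap (SD, n = 2 each, difference -0.39, exact permutation p = 0.667). None of these tests could pass 0.05, since the smallest p this design allows is 0.333.

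**Figure D3:**
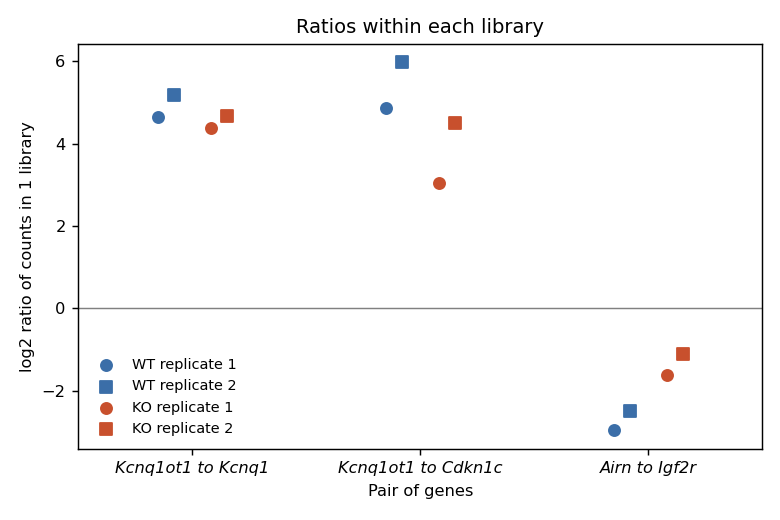
Log2 ratio of raw counts of 2 genes within each library, for Kcnq1ot1 to Kcnq1, Kcnq1ot1 to Cdkn1c and Airn to Igf2r. The KO values of Airn to Igf2r (-1.61 and -1.11) lie above the WT values (-2.96 and -2.49), those of Kcnq1ot1 to Cdkn1c lie below, and those of Kcnq1ot1 to Kcnq1 overlap.

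Agpat4, an acyltransferase gene whose start lies at -622.6 kb from that of Airn (negative is towards lower coordinates), was the only other gene called near this cluster. The WT libraries read 246 and 216 CPM and the KO libraries 390 and 350 CPM, and the gene rose by 0.68 ± 0.11 (SE, edgeR adjusted p = 0.00920). Its groups overlapped with spike-in scaling, where its log2 fold change was 0.44 and not called. Without WT replicate 2 it was 0.59 and not called (adjusted p = 0.116). Of 13 genes listed for the domain 8 were tested, with 1 higher, 0 lower and a median of 0.11. Agpat4 was again the only call among 10 tested genes whose body comes within 500 kb of the stretch that Airn and Igf2r span. Of all tested genes, edgeR called 4.05% higher and 4.02% lower. The cation transporter genes Slc22a2 and Slc22a3, which Airn is known to silence in placenta, had too few counts to be tested.

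The order of the members by level per kb of gene body was led in WT by Phlda2 (3.11 CPM per kb), Kcnq1ot1 (2.68), Cdkn1c (2.30) and H19 (1.68). These 4 overlapped in part, since the WT libraries of Phlda2 stood at 4.34 and 1.89, those of Cdkn1c at 3.16 and 1.45 and those of H19 at 1.97 and 1.38 CPM per kb. Below them, with no overlap between neighbours in the order, came Igf2r (1.08), Ascl2 (0.236), Airn (0.122) and Kcnq1 (0.0268 CPM per kb). In KO the highest were Cdkn1c (7.12) and H19 (5.15 CPM per kb), and Cdkn1c's libraries at 10.1 and 4.14 enclosed those of H19.

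On the spike-in scale, where library size is the S. pombe total times a TMM factor of the S. pombe genes, no member was called. The median log2 fold change of all tested genes moved to -0.23 on this scale, and edgeR called 0.00596% of genes higher and 0.0953% lower. It called 0 of the 8 members, with 2 at an unadjusted p under 0.05, H19 (1.45 ± 0.63, SE) and Cdkn1c (1.37 ± 0.63). Of all 16789 genes tested, 634 had an unadjusted p under 0.05 on this scale, in either direction. On the per-million scale of S. pombe counts, H19 read 16.4 and 19.3 in WT and 36.2 and 61.4 in KO, without overlap. Airn read 41.3 and 89.5 in WT and 77.2 and 181 in KO, and its groups overlapped (0.98 ± 0.66, SE). Mouse counts per S. pombe count were 3.252 and 5.604 in WT and 2.707 and 4.855 in KO. This scale carries that gap between replicates into every gene. KO libraries both stood above both WT libraries for 3 members, H19, Cdkn1c and Ascl2, where 4.10% of all tested genes did so, and below them for 0, where 13.2% did so. Of these, Ascl2 could not have been tested without its KO libraries. The direction of Phlda2 was opposite on this scale (-0.06), and its groups overlapped. In the authors' deposited table, whose values are spike-in scaled, the shrunken KO over WT log2 fold change was 1.01 for H19, 0.99 for Cdkn1c and 0.66 for Airn. The adjusted p of each of the 3 was 0.999 in the authors' deposited table, which has 8 of 29514 rows under 0.05.

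**Figure D4:**
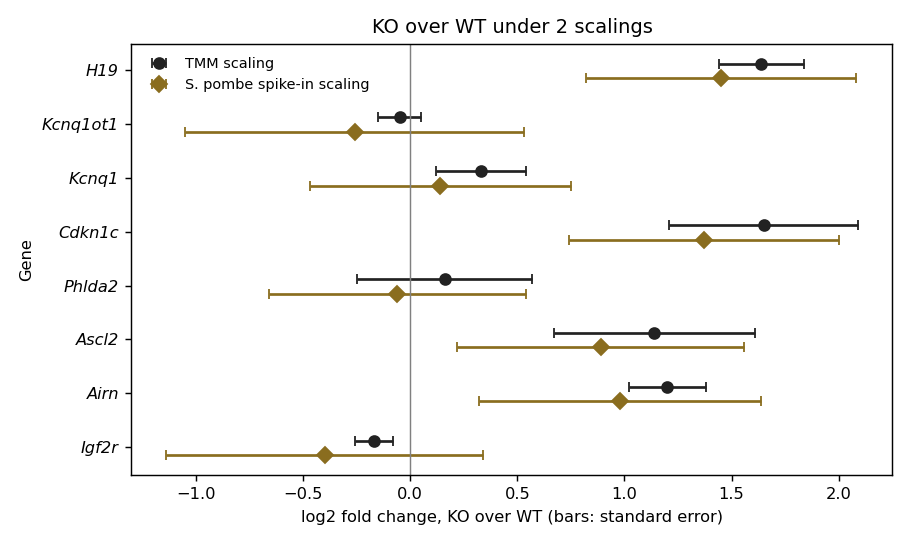
Log2 fold change of KO over WT with its standard error for the 8 tested genes, with TMM scaling (circles) and with S. pombe spike-in scaling (diamonds). The spike-in values lie to the left of the TMM values and have wider bars, as for H19 with 1.45 ± 0.63 against 1.64 ± 0.20.

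Of 26 listed imprinting control factors, all tested, 23 did not pass, 1 was higher and 2 lower, where 8.07% of all genes were called. Their median log2 fold change was -0.10, beside 0.01 over all genes. Dnmt3a, a de novo DNA methyltransferase, fell by 0.64 (log2), with means of 101 ± 6.95 and 64.8 ± 1.11 CPM, and Tet3, a dioxygenase that oxidises methylcytosine, rose by 0.59, with means of 51.6 ± 2.71 and 77.6 ± 5.82 CPM (SD, n = 2 each, edgeR adjusted p = 0.00545 and 0.00980). Ctcfl, the germline paralogue of Ctcf, fell by 1.61, with means of 1.86 ± 0.250 and 0.614 ± 0.0753 CPM (SD, n = 2 each, edgeR adjusted p = 0.0330). With spike-in scaling Dnmt3a, Tet3 and Ctcfl were not called (log2 fold changes -0.85, 0.35 and -1.89), and the groups of Tet3 overlapped. Ctcfl was not called in DESeq2 (adjusted p = 0.136) or without WT replicate 2 (0.190).

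Of 15 tested genes of the IGF axis, 2 were higher and 3 lower, where 4.05% and 4.02% of all genes were, and the median log2 fold change was 0.07. Not all of these calls held without WT replicate 2. Plagl1, an imprinted zinc finger gene that is known to act on other imprinted genes including H19, rose by 2.45 ± 0.20 (SE), and Grb10, an imprinted adaptor that restrains insulin and IGF receptor signalling, rose by 0.66 ± 0.11 (edgeR adjusted p = 0.000959 and 0.00824). Igf2bp3, which encodes an RNA-binding protein of Igf2 mRNA, fell by 0.56, and Igfbp2, an IGF-binding protein gene, fell by 0.49 (edgeR adjusted p = 0.00920 and 0.0152). Igf2bp2 was the third gene called lower, and its call was not followed under the alternatives. With spike-in scaling Plagl1, Grb10, Igf2bp3 and Igfbp2 were not called (log2 fold changes 2.21, 0.47, -0.79 and -0.75). Grb10, Igf2bp3 and Igfbp2 were not called without WT replicate 2 (log2 fold changes 0.56, -0.54 and -0.48). Among the 6 other CDK inhibitor genes, Cdkn1b, which encodes p27, fell by 0.56 (edgeR adjusted p = 0.0414), and 0 were called higher. Of the 6, 3 had a log2 fold change above 0, and the median was 0.06. The call on Cdkn1b was lost in DESeq2 (adjusted p = 0.0729), with total mouse counts (edgeR adjusted p = 0.0587) and with spike-in scaling. It was also lost without WT replicate 1 (log2 fold change -0.50) and without WT replicate 2 (-0.62).

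Markers of extraembryonic cells moved in the same libraries, and H19, Cdkn1c and Ascl2 are known to be active in such cells. The marker counts below stand beside 4.05% of all tested genes called higher and 4.02% lower. An unadjusted p under 0.05 was reached by 3842 of 16789 genes (edgeR). Of 15 primitive endoderm markers 14 were tested, 11 were higher and 0 lower, and their summed level went from 1098 to 1212 CPM over the WT libraries and from 1903 to 2412 CPM over the KO libraries, with none at 0. Of the 11, only Col4a2, Col4a1, Sparc and Lamb1 were followed under the alternatives. Spike-in scaling called none of those followed (log2 fold changes 1.19, 1.22, 0.51 and 0.56), and the groups of Sparc and Lamb1 overlapped there. Of 14 trophoblast markers 11 were tested, 5 were higher and 0 lower, with overlapping sums of 138 to 152 CPM (WT) and 146 to 201 CPM (KO), and the placental markers Tpbpa and Prl3d1 were at 0 in all libraries. Of the 5, Krt18, Krt8, Krt7 and Gata3 were followed under the alternatives, and Cdx2 was not. Spike-in scaling called none of those followed. Krt7 and Gata3 lost their calls in DESeq2 (adjusted p = 0.0885 and 0.0674), and Gata3 also with total mouse counts (edgeR adjusted p = 0.0511). Neither Krt7 nor Gata3 was called without WT replicate 1 (log2 fold changes 1.33 and 0.91) or without WT replicate 2 (1.26 and 0.83). Of 15 fibroblast markers 9 were tested and 0 called by edgeR (3 at an unadjusted p under 0.05), with overlapping sums of 74.45 to 93.5 CPM (WT) and 78.3 to 97.1 CPM (KO). ES cell markers summed to 2159 to 2181 CPM (WT) and 1507 to 1753 CPM (KO), where Klf4 and Nanog were lower among 9 tested. Neither Klf4 nor Nanog was called with spike-in scaling. The part of these markers' cells in the results on H19, Cdkn1c, Ascl2 and Airn was not tested, and more cells of a type and more RNA per cell cannot be told apart in bulk libraries.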

How the data were processed

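TT-seq libraries of 2 Supt3 WT and 2 Supt3 KO samples were compared from gene tables. Tools named in the submitters' processing notes are STAR 2.5.3, HTSeq 0.6.1p1, cutadapt 1.10, bcl2fastq 2.20.0.422 and DESeq2 1.16.1, with the build mm10. The strand setting and the counted feature of HTSeq were not given in the sources used here. Per the labels' protocols the libraries were stranded, made without ribosomal depletion and amplified by PCR, while the molecule label says polyA RNA. The deposited raw counts cover 54146 mouse and 7259 S. pombe genes. The authors' comparison table repeats the mouse counts (100% equal) and adds deposited normalized signal values, which are counts divided by a spike-in size factor, and the authors' log2 fold changes and p-values. No column was left out.

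Genes kept by filterByExpr (minimum count 10; 16789 genes) were tested with edgeR 4.0.16 in R 4.3.3, using TMM factors and Benjamini-Hochberg adjusted p under 0.05. SE was taken as the absolute log2 fold change over the root of the F statistic. Alternatives were spike-in scaling, DESeq2 1.42.0, limma 3.58.1 voom, other filters and scalings, a depth-pair term and each library left out. Ratios used a pseudocount of 0.5. The fit was tested on simulated data. Lengths per kb leave out bases shared with genes of the same strand. Figures used Python 3.11.15. Replicates were numbered in accession order. Replicates differed beyond counting noise (chi-square per degree of freedom 6.05 in WT, 10.6 in KO). Named were all members, and up to 4 called genes of each list or the 2 most abundant where none was called. The members and lists were chosen with earlier results of these data known.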

Additional observations from a re-analysis of the deposited data

How the results depend on the processing

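Of 12 alternatives, 11 called H19 and Airn, and spike-in scaling called 0 members higher. Leaving out 1 library gave 3 to 4 members higher, and 0 members were lower under each alternative. Cdkn1c was called under 7 alternatives and Ascl2 under 1. H19 ranged from 1.39 to 1.88 and Airn from 0.94 to 1.41 on the log2 scale. Signs turned for Kcnq1ot1 without KO replicate 1 (0.04; range over left-out libraries -0.14 to 0.04), for Phlda2 with spike-in scaling (-0.06) and without WT replicate 2 (-0.35) or KO replicate 1 (-0.32; -0.35 to 0.84), for Ctsd with spike-in scaling (-0.03), for Mrpl23 without KO replicate 1 (-0.36 to 0.16), for Vim (fibroblast list) without WT replicate 1 (0.10) or KO replicate 2 (0.14; -0.26 to 0.14), and for Fbn1 (fibroblast list) with spike-in scaling (-0.09) and without WT replicate 2 (-0.01) or KO replicate 1 (0.00; -0.01 to 0.30). None of these was called, and the cause was not tested. With spike-in scaling 17 of 16789 genes were called in place of 1355, where the biological coefficient of variation was 0.363 in place of 0.0952. The depth-pair term called 4307, no low-count filter 2460 of 29514, leaving out WT replicate 2 called 743 and leaving out KO replicate 2 called 3058. A lone library of a genotype is assumed to vary like the other pair. No paired analysis was possible because the labels give the libraries no replicate numbers; the depth pairs were made from library totals and are not matched samples. A pseudocount of 5 moved no ratio's direction. Ascl2 rests on 8 to 21 counts a library.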
